A study of Mus musculus with 6 samples.

Results

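Sites bound by Grhl3 in embryonic mouse skin were compared with those in epidermis of adult mice 4 days into a depilation experiment. The material was 3 peak lists from chromatin immunoprecipitation followed by sequencing (ChIP-seq), 2 replicates from whole back skin at E16.5 and 1 list from depilated adult epidermis. Depilation, the pulling out of hair, is a physical injury to the skin. The same custom-made antibody against Grhl3 served for all 3 libraries, and the labels name no genotype or strain. The labels describe 6 libraries, of which 2 are inputs that were not analysed here. An imiquimod list from adult epidermis was used only as a further readout. Embryonic whole skin includes dermis, whereas adult epidermis had been freed from it with dispase, so age, tissue and injury differ together and cannot be told apart. Nothing in the labels says whether the E16.5 replicates came from separate animals, and the adult side has no replicate and no uninjured epidermis. Each comparison is therefore one of peak lists and carries no test between conditions. The difference between the E16.5 replicates stands beside the main values, and the 95% intervals in parentheses are exact binomial ones that cover counting error only.

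Grhl3 belongs to the grainyhead-like family of transcription factors, which regulate genes of epithelial differentiation. In skin it is known for its part in forming the epidermal barrier late in gestation and in closing wounds. Grainyhead factors are also described as able to bind enhancers of epithelial genes that are covered by nucleosomes.

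The lists were taken on autosomes, without 3 windows of very high signal on chromosome 2 (98.5 to 98.51 Mb), chromosome 9 (2.99 to 3.04 Mb) and chromosome 17 (39.97 to 39.99 Mb). This left 25587 peaks, of 26124 in these 3 lists and 34098 in all 4 deposited lists of the series. Replicate 1 kept 11428 peaks, replicate 2 kept 9456 and the depilation list kept 4703. The windows themselves held 4, 23 and 46 peaks in the same order. An E16.5 site was a replicate 1 peak overlapped by at least 1 bp of a replicate 2 peak. There were 3697 such sites, and 0 of them touched another, so none were merged. The overlap rule had few borderline cases. Of the sites, 22 rested on an overlap of 50 bp or less (median replicate 1 score 76.8), and 29 replicate 1 peaks missed a replicate 2 peak by 50 bp or less (median score 73.2). Library depth is unknown for these lists, and the authors' peak score, which neither labels nor files define, was used only as a rank within a list. The files use build mm9, for which no gene annotation or genome was used here, so sites are given by position and not by gene.

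Of the 3697 E16.5 sites, 1411 carried a depilation peak, or 38.2%. In the adult list, 33.7% of the depilation peaks (1587 of 4703) lay on an E16.5 site. The 2 replicates gave different pictures when used alone. Replicate 1 covered 51.2% (49.7 to 52.6) of the depilation peaks, and replicate 2 covered 34.0% (32.6 to 35.4). A depilation peak lay on 19.1% of replicate 1 peaks and on 16% of replicate 2 peaks. Between the replicates, 32.4% (31.5 to 33.2) of replicate 1 peaks carried a replicate 2 peak. In the other direction, 41.5% (40.5 to 42.5) of replicate 2 peaks lay on a replicate 1 peak. These lists differ in length, so the shares are not on an equal footing. Among replicate 1 peaks that replicate 2 lacked, 10.01% (9.35 to 10.7) carried a depilation peak. Among replicate 2 peaks that replicate 1 lacked, 2.55% (2.15 to 3.001) did.

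Since the lists differ in length and in peak width, overlaps were also taken between equal numbers of best-scoring peaks. Depilated epidermis then overlapped E16.5 replicate 1 about as often as the other E16.5 replicate did. Of the 500 best peaks of replicate 1, 96 were overlapped by the 500 best of replicate 2 (19.2%, 15.8 to 22.9) and 105 by the 500 best of depilation (21.0%, 17.5 to 24.8). With 2000 peaks a list, 683 replicate 1 peaks were overlapped by replicate 2 (34.2%, 32.1 to 36.3) and 691 by depilation (34.6%, 32.5 to 36.7). At that size 433 replicate 2 peaks were overlapped by depilation (21.7%, 19.9 to 23.5). Replicate 2 overlapped depilation less than replicate 1 did at each of the 4 sizes from 500 to 3000, with intervals that do not overlap.

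Fixed windows lowered all 3 overlaps and left replicate 2 with depilation as the lowest. When each peak was replaced by 200 bp around its centre, the 2000 best peaks gave 28.6% (26.6 to 30.6) between the replicates, 26.4% (24.5 to 28.4) between replicate 1 and depilation, and 19.1% (17.4 to 20.9) between replicate 2 and depilation. At 500 and 1000 peaks the intervals of the 2 replicates' overlaps with depilation met in this setting. At 3000 peaks the replicates overlapped more, at 33.3% (31.7 to 35.0) against 29.3% (27.7 to 31.0) for replicate 1 and depilation. The intervals of these last 2 shares do not overlap. With 3000 peaks as deposited, the same pairs gave 39.5% (37.7 to 41.2) and 36.6% (34.9 to 38.4), with intervals that do. A cut at 3000 also reaches further down the depilation list of 4703 peaks than down the replicate lists of 11428 and 9456. Equal size is therefore not equal rank depth, and which pair was closer is not settled here.

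**Figure D1:**
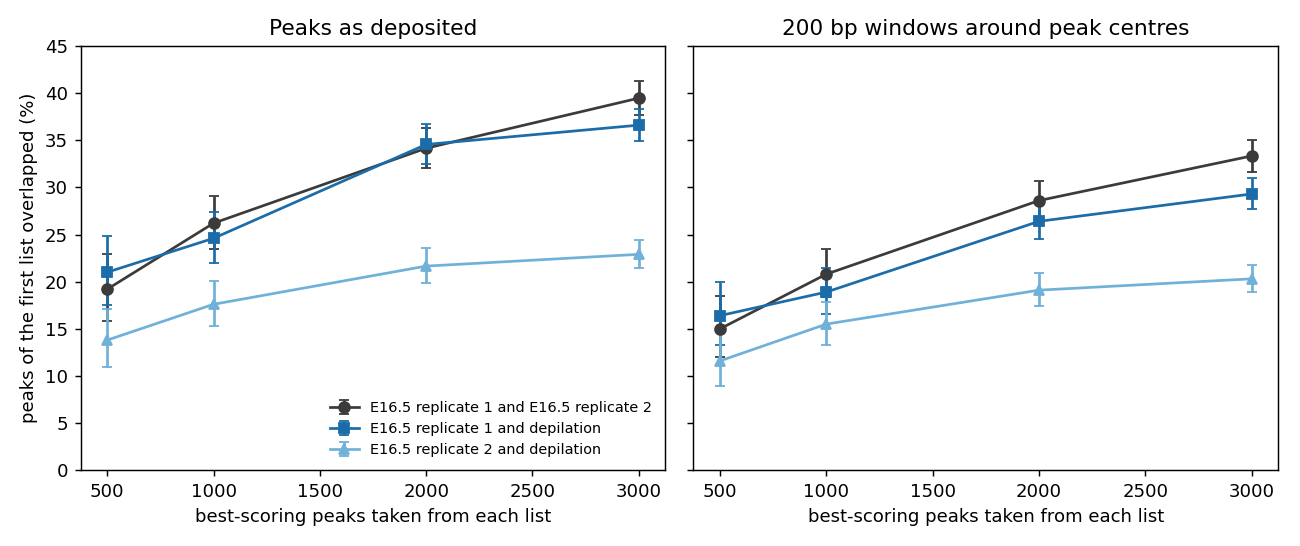
Share of the first list's peaks (percent, vertical axis) overlapped by the second list, against the number of best-scoring peaks taken from each list; left, peaks as deposited, right, 200 bp windows around centres. Points are the 3 pairs of lists and bars are exact 95% binomial intervals; replicate 1 with depilation runs near replicate 1 with replicate 2 up to 2000 peaks and lies below it at 3000 in the right panel (29.3% against 33.3%), and replicate 2 with depilation is the lowest pair, at 21.7% for 2000 peaks as deposited.

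Recovery after depilation rose with the score rank in each replicate used alone, and more steeply in replicate 1. In the lowest score decile of replicate 1, 2.27% (1.49 to 3.31) of peaks carried a depilation peak, against 54.3% (51.4 to 57.2) in the highest. For replicate 2 the share went from 7.32% (5.74 to 9.17) to 33.1% (30.1 to 36.2). At the very top, 271 E16.5 sites ranked in the best decile of both replicates. Of these, 170 carried a depilation peak (62.7%, 56.7 to 68.5), and 57 were in the best decile of the depilation list as well (21.0%, 16.3 to 26.4).

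Recovered sites were wider as well as better ranked. They had a median replicate 1 width of 768 bp and a replicate 2 width of 452 bp, against 608 and 358 bp for sites with no depilation peak. Sites were divided into terciles of replicate 1 width, with limits near 561 and 788 bp, and into terciles of the mean E16.5 score percentile, with limits near 58.6 and 78.4. Narrow sites of low rank carried a depilation peak in 16.6% of cases (13.9 to 19.6, 675 sites). Wide sites of low rank did so in 49.7% (42.4 to 57.05, 191 sites), and narrow sites of high rank in 34.3% (26.5 to 42.7, 143 sites). Wide sites of high rank reached 57.4% (53.6 to 61.1, 692 sites). Within each score tercile the share rose from narrow to wide, and within each width tercile it rose from low to high score.

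A wide peak also offers more bases to overlap. With 200 bp windows around centres, the narrow, middle and wide terciles gave 21.6% (19.3 to 24.0), 36.5% (33.8 to 39.2) and 38.8% (36.1 to 41.6), against 21.7%, 38.0% and 54.8% with peaks as deposited. The step from narrow to middle width was kept, while the intervals of the middle and wide terciles then overlapped. Such windows also miss depilation peaks far from the centre of a wide peak, and E16.5 rank was not held equal here.

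**Figure D2:**
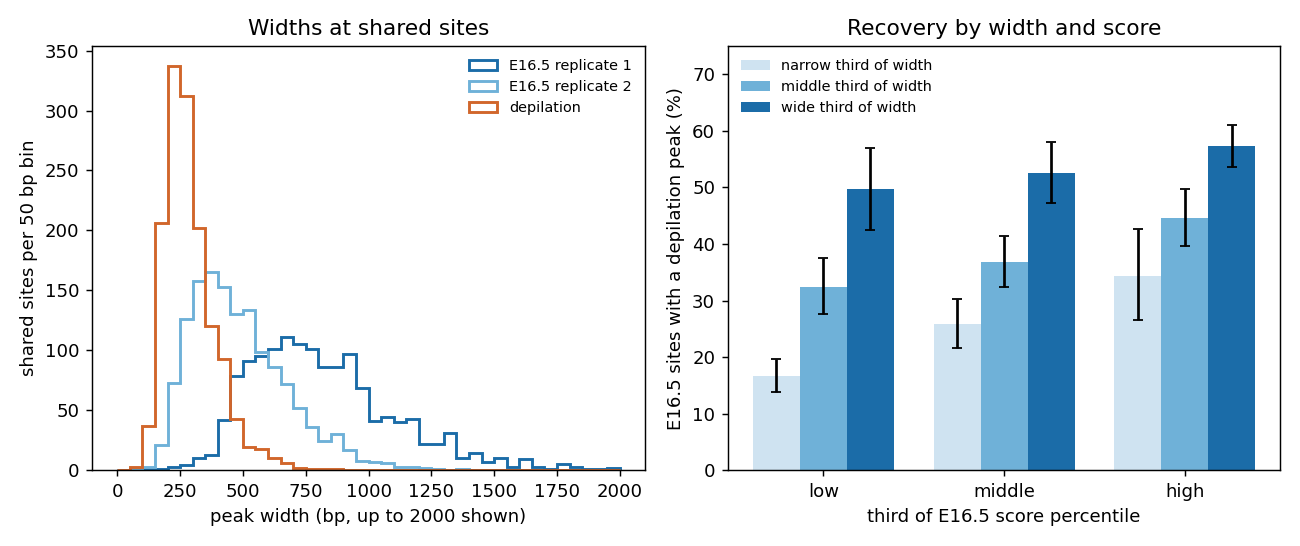
Left, number of shared sites per 50 bp bin of peak width (bp) in each of the 3 lists; right, share of E16.5 sites with a depilation peak (percent) by tercile of E16.5 score percentile and of replicate 1 width, with exact 95% binomial intervals. Depilation peaks are the narrowest at shared sites, and recovery runs from 16.6% for narrow, low-ranking sites to 57.4% for wide, high-ranking ones.

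At nearly all of the 1411 shared sites the depilation peak was narrower than the replicate 1 peak and lay within it. Median widths were 768 bp in replicate 1 (quartiles 606 and 975), 452 bp in replicate 2 (341 and 593) and 267 bp after depilation (216 and 337). The depilation peak was narrower than the replicate 1 peak at 1410 of 1411 sites and narrower than the replicate 2 peak at 1239 (87.8%, 85.99 to 89.5). Its width was a median 0.36 of the replicate 1 width and 0.61 of the replicate 2 width. Spanning all depilation peaks of a site, instead of the best-scoring one, gave 0.4 of the replicate 1 width. The replicates themselves also differed, replicate 2 peaks having a median 0.62 of the replicate 1 width and being the narrower ones at 1353 sites. Depilation thus differed from replicate 2 in width about as much as replicate 2 did from replicate 1. Over the whole lists, depilation and replicate 2 peaks were more alike, with medians of 205 and 232 bp against 446 bp in replicate 1.

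Positions within the shared sites were close. The depilation peak lay wholly inside the replicate 1 peak at 1341 sites (95.04%, 93.8 to 96.1) and wholly inside the replicate 2 peak at 720 (51.0%, 48.4 to 53.7). Its centre was a median 89.5 bp from the replicate 1 centre and 80 bp from the replicate 2 centre, and the 2 replicate centres were a median 70.5 bp apart. Centres within 100 bp of each other were found at 53.9% of sites (51.2 to 56.5) for replicate 1 and depilation, at 58.3% (55.6 to 60.8) for replicate 2 and depilation and at 61.2% (58.6 to 63.7) for the 2 replicates. The intervals of the last 2 overlap.

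Some replicate 1 peaks were divided into several in the depilation list, and some in replicate 2 as well. Of the 1411 shared sites, 165 held 2 or more depilation peaks (11.7%, 10.1 to 13.5) and 117 held 2 or more replicate 2 peaks (8.29%, 6.91 to 9.85). Of the 1411 shared sites, 1246 held 1 depilation peak, 154 held 2, 10 held 3 and 1 held 4. The 165 sites with 2 or more had a median replicate 1 width of 1002 bp, against 746 bp where there was 1, and a median replicate 1 percentile of 91.2 against 82.1. The site with 4, singled out after its values were seen, lay at chr6:115943385-115945293. Replicate 1 had a single peak of 1909 bp there with a score of 254.42, and replicate 2 a single peak of 1067 bp with a score of 136.06. The depilation peaks were 235, 216, 261 and 277 bp wide, with scores of 72.97, 77.5, 59.16 and 50.8. The first lay at 115943525 to 115943759 and the last at 115944726 to 115945002, so together they spanned most of the replicate 1 peak.

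The order of the lists by clustering depended on these divided peaks. A neighbour of the same list with its centre within 10 kb was found for 14.8% (13.8 to 15.9) of depilation peaks and for 9.14% (8.23 to 10.1) of E16.5 sites. Much of the adult excess lay within 1 kb, where 530 depilation peaks had a neighbour (11.3%, 10.4 to 12.2), against 4.17% (3.54 to 4.86) of E16.5 sites. Of these 530, 494 lay on a replicate 1 peak, and 432 on a replicate 1 peak that held at least 2 of them. When peaks within 1 kb were joined in both lists, the shares with a neighbour within 10 kb were 4.02% (3.46 to 4.64) after depilation and 5.22% (4.52 to 5.998) at E16.5, so the order turned, but these intervals overlap. With the 3000 best of each list joined in the same way they were 3.06% (2.46 to 3.76) and 3.90% (3.23 to 4.66), again with overlapping intervals. The E16.5 replicates used alone are longer lists and were denser than the depilation list without joining, with 18.4% (17.7 to 19.1) and 18.1% (17.3 to 18.9). In the 3000 best of each list, not joined, the order was the opposite, with 6.93% (6.05 to 7.90) and 8.57% (7.59 to 9.63) in the replicates and 13.03% (11.8 to 14.3) after depilation. Joining at that size turned it again, with 5.02% (4.26 to 5.86) and 4.13% (3.44 to 4.91) in the replicates and 3.06% after depilation. The replicate 1 interval then lies above that of depilation, and the replicate 2 interval overlaps it.

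**Figure D3:**
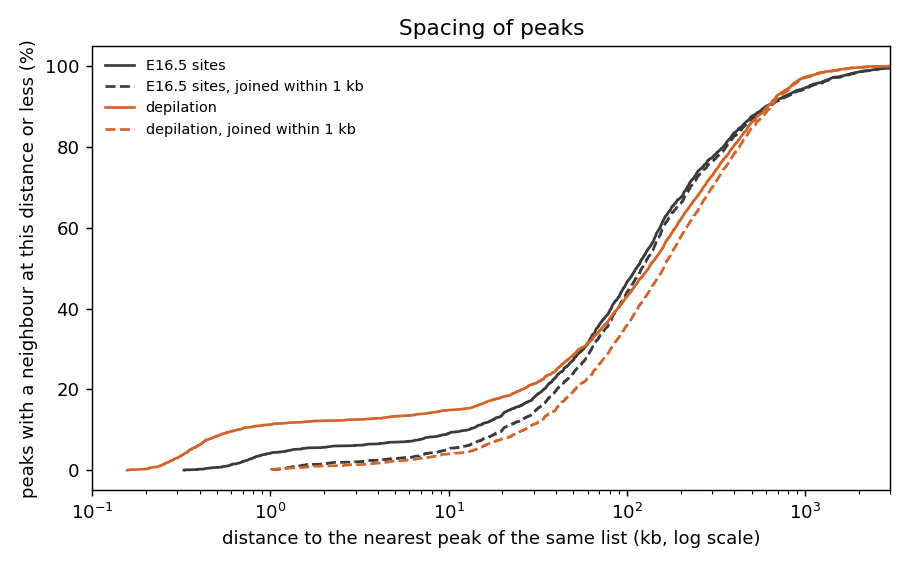
Cumulative share of peaks (percent) against the distance to the nearest peak of the same list (kb, log axis), for E16.5 sites and depilation peaks, as deposited (solid) and after joining peaks within 1 kb (dashed). The solid depilation curve lies above the E16.5 curve at 10 kb (14.8% against 9.14%), and the dashed one below it (4.02% against 5.22%).

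Adjacent E16.5 sites were compared for recovery. In 176 pairs of adjacent sites within 10 kb, both carried a depilation peak in 24 pairs, 1 did in 65 and neither did in 87. The partner of a recovered site was recovered in 42.5% of cases and the partner of an unrecovered site in 27.2%. For the 1048 pairs within 100 kb these shares were 43.1% and 34.7%. A site can belong to 2 pairs, so these shares carry no interval here. A neighbouring E16.5 site lay within 10 kb of 7.51% (6.19 to 9.01) of recovered and 10.1% (8.94 to 11.5) of unrecovered sites, and these intervals overlap.

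Dense windows of 1 Mb coincided in part. Windows with a peak numbered 2377, of which 1407 held an E16.5 site, 1916 a depilation peak and 1254 both. Dense windows were a small part of these. At least 5 E16.5 sites lay in 196 windows and at least 5 depilation peaks in 212, and 98 windows met both counts, 50% of the former and 46.2% of the latter. The window at 80 to 81 Mb on chromosome 10 held the most E16.5 sites, 19, and also the most depilation peaks, 15, of which 3 were in neither replicate. The window at 120 to 121 Mb on chromosome 11 held 14 E16.5 sites and 12 depilation peaks, 0 of them absent from both replicates. At 97 to 98 Mb on chromosome 11 there were 9 E16.5 sites and 12 depilation peaks. The neighbouring chromosome 10 window at 79 to 80 Mb showed the largest deficit, with 16 E16.5 sites and 8 depilation peaks. Of its 16 sites, 5 were recovered, among them the best of the window, at chr10:79229078-79229807, with a replicate 1 score of 272.9 and a depilation score of 100.8. The window at 86 to 87 Mb on chromosome 8 held 10 E16.5 sites, 1 of them recovered, and 3 depilation peaks. Its site with the highest replicate 1 score, 194.41, at chr8:86939244-86939895, had no depilation peak. The opposite case was 60 to 61 Mb on chromosome 1, with 1 E16.5 site, which was not recovered, and 8 depilation peaks. Of these 8, 5 were in neither replicate, 2 lay on replicate 1 peaks alone and 1 on a replicate 2 peak alone. Across chromosomes the recovered share ran from 28.6% (20.9 to 37.3) on chromosome 16 to 44.1% (36.0 to 52.4) on chromosome 12, with overlapping intervals.

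Score ranks at shared sites were compared as percentiles within each list, where 100 is the best peak. Ranks from lists of unequal length do not measure a change in binding, and the E16.5 replicates show how far ranks move between libraries of a single stage. The median percentile of the shared sites was 83.5 in replicate 1, 74.4 in replicate 2 and 72.4 after depilation. The shift, depilation percentile minus the mean of the 2 replicates, had a median of -3.07 points with quartiles at -26.0 and 13.1. Against replicate 1 alone it was -7.98, against replicate 2 alone -0.52, and replicate 2 minus replicate 1 was -6.29. The median shift was thus within the difference between the replicates. When ranks were retaken among the shared sites alone it was 1.17 points, the opposite sign.

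The spread of ranks was somewhat wider between depilation and either replicate than between the replicates. The median absolute difference was 18.8 points between depilation and replicate 1, 21.1 between depilation and replicate 2 and 16.2 between the replicates. Differences of 50 points or more occurred at 15.7% of sites (13.8 to 17.7) for depilation and replicate 1, at 18.9% (16.8 to 21.0) for depilation and replicate 2, and at 12.9% (11.2 to 14.8) for the 2 replicates. The interval of the replicates overlaps that for depilation and replicate 1 but not that for depilation and replicate 2. All 3 shares come from the same sites and a single adult library, so the intervals are no test between libraries. Ranks were weakly related across the 1411 sites in all 3 pairs. Spearman's rho was 0.27 between the replicates, 0.19 between replicate 1 and depilation and 0.15 between replicate 2 and depilation. These describe sites within the same libraries, not independent samples.

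The depilation percentile lay above both replicate percentiles at 26% of shared sites (367) and below both at 42.1% (594). Read the same way, replicate 2 was above the other lists at 26.9% (24.6 to 29.3) and below them at 38.9% (36.4 to 41.5), and replicate 1 was above at 47.1% (44.4 to 49.7) and below at 19.0% (17.0 to 21.1). Depilation therefore stood outside the other lists at 68.1% of sites (65.6 to 70.5), and the replicates did so at 66.1% (63.5 to 68.5) and 65.8% (63.2 to 68.2). At each site a single list holds the middle percentile, ties aside, so the 3 shares depend on each other. They lay close together, and this count did not set the adult list apart from the embryonic ones.

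The depilation rank rose with the E16.5 rank, but slowly. In the lowest quintile of shared sites by E16.5 percentile (6.17 to 55.5), the median depilation percentile was 62.7, with quartiles of 35.1 and 81.2. In the highest quintile (89.3 to 99.97) it was 80.4, with quartiles of 54.3 and 94.1. Among shared sites in the best decile of replicate 1, 34.9% (30.7 to 39.3) were in the best decile of replicate 2 and 28.7% (24.8 to 33.0) in that of depilation. Among those in the best decile of depilation, 49.0% (43.0 to 54.9) were in the best decile of replicate 1 and 33.6% (28.1 to 39.4) in that of replicate 2.

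**Figure D4:**
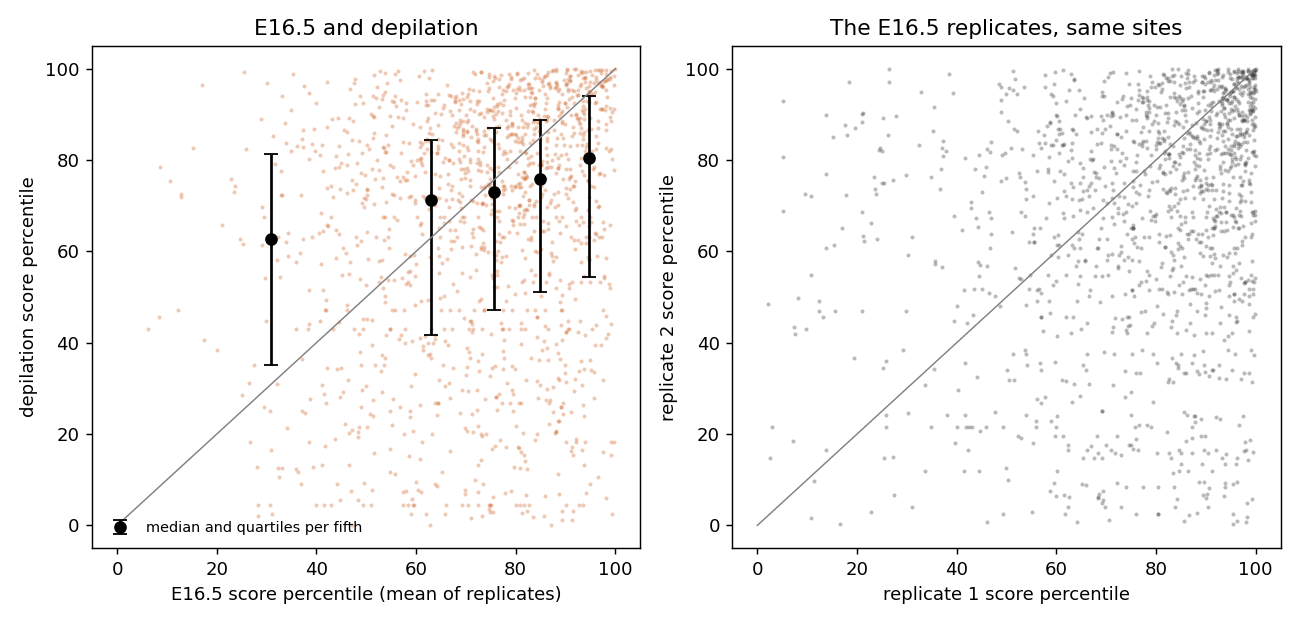
Score percentiles within each list at the 1411 shared sites, 1 point a site: left, depilation against the mean of the E16.5 replicates, with the median and quartiles of each quintile in black; right, replicate 2 against replicate 1 at the same sites. Grey lines mark equal percentiles; both panels scatter widely, and the quintile medians rise from 62.7 to 80.4.

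A few sites ranked near the top of all 3 lists. The best by its lowest percentile was chr10:25999660-26000310, with scores of 911.37 and 363.37 in replicates 1 and 2 and 1061.63 after depilation. It ranked first among replicate 1 peaks, and it had no imiquimod peak. The next was chr13:120217059-120218468, with scores of 329.71, 186.83 and 211.63, where the depilation peak was 860 bp wide. At chr11:53163787-53164752 the scores were 322.51, 272.94 and 159.98. The remaining 2 lay on chromosome 15. Scores were 256.94, 187.83 and 158.95 at chr15:79634187-79635456 and 231.48, 169.2 and 175.98 at chr15:81523985-81525610. All 5 sites were in the best 3% of each list, and 3 of the 5 carried an imiquimod peak, against 68.1% (62.3 to 73.5) of shared sites in the highest quintile of E16.5 rank.

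Other sites ranked far higher after depilation than in either replicate. The largest upward shift was at chr11:116779882-116780841, where the scores of 56.98 and 51.38 in replicates 1 and 2 gave percentiles of 27.5 and 6.59. After depilation the score there was 130.45, a percentile of 96.4. At chr13:41701053-41701820 the replicate scores were 51.56 and 60.83 and the depilation score was 201.7, a percentile of 99.3. That depilation peak was 552 bp wide, wider than the replicate 2 peak of 399 bp. At chr7:133225168-133226086 the scores were 68.43, 54.68 and 179.24, and at chr13:34436241-34437407 they were 69.19, 52.21 and 133.32. Of the 8 sites with the largest upward shifts, between 60.9 and 79.3 points, 4 carried an imiquimod peak, against 53.0% (50.4 to 55.6) of all shared sites. All 8 lay in the lowest quintile of E16.5 rank, where the share was 39.6% (33.8 to 45.5).

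The largest downward shifts were larger in size, between -97 and -87 points over 8 sites. Shared sites had a median E16.5 mean percentile of 75.5, so falls had more room than rises. Depilation lay 50 points or more below the E16.5 mean at 11.3% of shared sites and as far above it at 1.49%. Replicate 2 lay as far below replicate 1 at 10.7% and above it at 2.20%, so the replicates showed a similar asymmetry. At chr7:91030734-91033167, a replicate 1 peak of 2434 bp scored 410.43 and its replicate 2 counterpart 184.97, percentiles of 99.9 and 98.6. The depilation peak within it was 185 bp wide and scored 50.52, a percentile of 2.51. At chr10:17666941-17667982 the scores were 230.12, 171.52 and 51, and at chr16:96366651-96367221 they were 164.26, 115.92 and 50.26. All 8 depilation scores lay between 50.26 and 51.31, just above the lowest score of the list, 50.01. These sites were therefore barely counted as shared. Of the 8, 5 carried an imiquimod peak, against 53.0% of all shared sites. All 8 lay in the highest quintile of E16.5 rank, where the share was 68.1% (62.3 to 73.5).

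The imiquimod list, from another adult library, gave a readout that had no part in the shift. Sorted by shift into quintiles, shared sites carried an imiquimod peak in 47.0% of cases (41.1 to 53.0) in the quintile with the largest falls in rank and in 56.7% (50.7 to 62.6) in the quintile with the largest rises. The intervals overlap. The authors' fold enrichment at those imiquimod peaks had medians of 6.48 and 6.62. The quintile that fell had the higher E16.5 ranks, with a median replicate 1 percentile of 86.3 against 66.4 in the quintile that rose, so the 2 quintiles differ in E16.5 rank as well as in shift. By E16.5 rank alone the imiquimod share of shared sites rose from 39.6% (33.8 to 45.5) in the lowest quintile to 68.1% (62.3 to 73.5) in the highest.

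The E16.5 sites with no depilation peak numbered 2286, and some were among the strongest ranked. The best by its lower replicate percentile was chr1:107886807-107888228, with scores of 291.5 and 226.8 in replicates 1 and 2. Others were chr13:120281006-120283397 (244.01 and 309.71), chr3:79090257-79091615 (245.93 and 181.98) and chr4:8618355-8619469 (277.92 and 178.16). The chromosome 13 site lay within 100 kb of the shared site at 120217059 described above. On chromosome 8 there were chr8:73904758-73906189 (266.62 and 176.27) and chr8:81818524-81819205 (229.77 and 254.32). The last 2 were chr9:56008248-56008945 (219.79 and 220.68) and chr19:12575425-12576352 (216.98 and 206.75). All 8 ranked above the 97th percentile in both replicates. Of them, 3 had an imiquimod peak, on chromosomes 1, 3 and 19, so those places were found in the other adult library. In the best-ranked 228 unrecovered sites, 119 had an imiquimod peak (52.2%, 45.5 to 58.8), against 26.8% (25.01 to 28.7) of all unrecovered sites. Their lower replicate percentile was 83.7 or more, and of the 307 recovered sites that also met this limit, 206 had an imiquimod peak (67.1%, 61.5 to 72.3).

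Depilation peaks with no peak in either replicate numbered 2149, or 45.7% of the adult list. Between the replicates, 7731 of 11428 replicate 1 peaks had no replicate 2 peak, and 5528 of 9456 replicate 2 peaks had no replicate 1 peak. Each of these counts rests on 1 other list, whereas the adult count rests on 2. The absent adult peaks were the lowest in score and the narrowest of the 4 classes of adult peaks by their medians. Their median score was 56.3, against 71.0 for depilation peaks on E16.5 sites, 67.1 for the 820 on replicate 1 peaks alone and 64.6 for the 147 on replicate 2 peaks alone. Their median width was 177 bp, against 261, 246 and 210 bp. A depilation neighbour lay within 10 kb of 4.70% (3.84 to 5.68) of them and of 26.4% (24.2 to 28.6) of those on E16.5 sites. Most of the latter were peaks that shared a site: of the 1246 that were alone on their site, 78 had such a neighbour (6.26%, 4.98 to 7.75), an interval that overlaps that of the absent peaks. The nearest E16.5 site was a median 415 kb away, and 63 of them lay within 10 kb of one.

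The share of depilation peaks absent from both replicates fell with the depilation score. It was 61.9% (57.35 to 66.3) in the lowest decile and 76.8% (72.7 to 80.5) in the second lowest. In the highest decile, scores of 99.7 and above, it was 7.01% (4.87 to 9.70), or 33 of 471 peaks. Of those 471 peaks, 414 lay on a replicate 1 peak (87.9%) and 303 on a replicate 2 peak (64.3%). Most of the best-scoring adult peaks were therefore found in embryonic replicate 1.

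**Figure D5:**
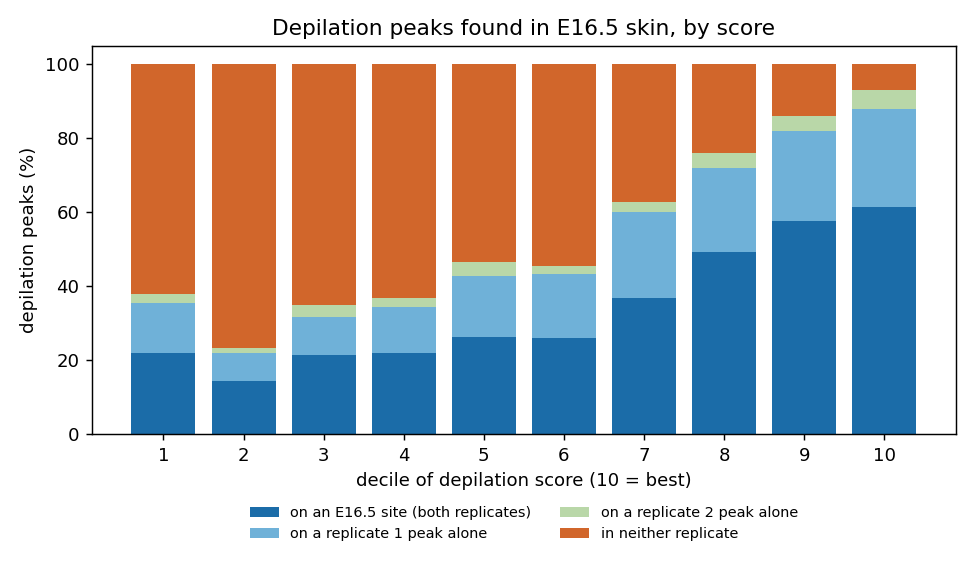
Depilation peaks (percent, vertical axis) by decile of their score, split by where they lay: on an E16.5 site, on a peak of replicate 1 or replicate 2 alone, or in neither replicate. The share in neither replicate falls from 61.9% in the lowest decile and 76.8% in the next to 7.01% in the highest.

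The adult peaks absent from E16.5 were seldom found in the other adult library. An imiquimod peak lay on 3.12% (2.42 to 3.94) of them, against 50.0% (47.5 to 52.5) of depilation peaks on E16.5 sites, 43.4% (39.99 to 46.9) of those on replicate 1 peaks alone and 27.9% (20.8 to 35.9) of those on replicate 2 peaks alone. The share was lower for absent peaks in each of the 10 score deciles, with intervals that do not overlap. In the highest decile, 9 of the 33 absent peaks had an imiquimod peak (27.3%, 13.3 to 45.5), against 66.8% (61.0 to 72.2) of those on E16.5 sites. In the lowest decile the shares were 0.687% (0.0833 to 2.46) and 41.7% (32.1 to 51.9). Width was not held equal in these comparisons.

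Of the 8 best-scoring of these adult peaks, 3 lay in the first few Mb of a chromosome, a position noticed after their values were seen. The first was chr11:3065187-3066819, 1633 bp wide with a score of 181.7, and it had no imiquimod peak. Another lay at chr13:3372146-3372687 (154.22) and a further one, of 398 bp, near the start of chromosome 18 (180.12). Below 4 Mb lay 29 of the 2149 absent peaks (1.35%, 0.906 to 1.93) and 46 of all depilation peaks (0.978%, 0.717 to 1.30), with overlapping intervals. In the best-scoring 10% of the absent peaks it was 7 of 214 (3.27%, 1.33 to 6.62). That interval lies just above the one for all depilation peaks and overlaps the one for all absent peaks. These 214 include the 3 peaks in which the position was noticed, so they are no separate check of it. Away from there, the peaks at chr14:60796193-60796595 (169.15), chr13:42147373-42147882 (158.96) and chr15:99500995-99501350 (138.11) each had an imiquimod peak. The remaining 2 of the best 8, at chr2:181652068-181652231 (168.1) and chr10:21862119-21862806 (139.49), had none. The share of depilation peaks absent from both replicates ran from 35.3% (29.9 to 40.9) on chromosome 11 to 58.2% (52.1 to 64.2) on chromosome 3, intervals that do not overlap. These are the extremes of all autosomes, picked by their values, so the gap between their intervals is not that of a pair fixed beforehand.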

How the data were processed

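Per the submitters' processing notes, Bowtie 0.12.7, bedtools 2.11.2 and build mm9 were used. Peak names begin with MACS; neither labels nor files give the caller's settings or say how inputs were used. The authors deposited 1 peak list per library with a peak score, and for imiquimod a count of tags, a ratio (fold enrichment) and an FDR in percent, per the file headers; of these the fold enrichment alone was printed. BED starts were raised by 1. Percentiles are score ranks within the kept list, with ties averaged. Where a site held several peaks of a list, the best-scoring one counted. Intervals are Clopper-Pearson at 95%, and neighbouring peaks are treated as independent. The sites, comparisons and list sizes were chosen with earlier results of these data known. Named sites are the 5 with the highest minimum percentile over 3 lists, 8 each with the largest upward and downward shift beyond both replicates, the 8 best unrecovered sites, the 8 best peaks in neither replicate, and the densest and most different 1 Mb windows; the site with 4 peaks lies outside this rule. Genes and motifs were not analysed here. The calculations were tested on simulated lists, and bedtools 2.31.1 gave the same 2407 depilation peaks on replicate 1. Work was done in Python 3.11.15 with scipy 1.17.1, pandas 2.3.3 and numpy 2.4.6.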

Additional observations from a re-analysis of the deposited data

How the results depend on the processing

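Library depth and the adult side's lack of a replicate limit every share. No paired analysis was possible because the depilation group has a single list and the labels pair no embryonic library with an adult one. Without E16.5 replicate 1 or 2, the share of E16.5 sites with a depilation peak ranged from 16.0% to 19.1%, that of depilation peaks on E16.5 sites from 34.0% to 51.2%, the median shift from -7.15 to -0.31 points, the width ratio from 0.37 to 0.63, and the difference in clustered share from -3.53 to -3.22 points against 5.70 with reproducible sites. Adult peaks with no E16.5 peak numbered 3105 without replicate 1 and 2296 without replicate 2, against 2149 with both. With 1 replicate no share outside both can be given. With the better-scoring 50% of each list, the share of sites recovered was 33.1%, that outside both replicates 65.0% and the clustering difference 7.36 points. Adult peaks in neither replicate then numbered 822, from an adult list cut to 50% of its peaks, so the counts are not on an equal footing. With 200 bp windows, recovery was 32.8%, the adult share 23.3%, the share outside both 70.6% and the clustering difference 7.72 points. At equal size, the 2000 best then gave 28.6%, 26.4% and 19.1%, as in the text. The clustering difference was 6.71 points with an overlap of 50% of the narrower peak, 7.10 with sites spanning both replicates' peaks, 6 with the 3000 best and -1.20 with peaks within 1 kb joined, an alternative chosen after seeing the data. Re-ranking among shared sites turned the median shift to 1.17 points. Keeping the sex chromosomes and the left-out windows moved none of the 7 main values past its limit.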
